A study of Mus musculus with 9 samples.

Results

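The aryl hydrocarbon receptor (AhR, gene *Ahr*), its partner ARNT and their target genes were followed through the 7 RNA-seq libraries of the study. Members were found by symbol among the 54838 Ensembl mouse gene identifiers of the deposited tables. They are *Ahr* and *Arnt*, the repressors *Ahrr* and *Tiparp*, and the enzyme genes *Cyp1a1*, *Cyp1a2*, *Cyp1b1*, *Nqo1* and *Aldh3a1*, which makes 9 genes. All the libraries come from small intestinal organoids of *Vil-CreERT2*;*Mettl3* fl/fl mice on a C57BL/6 background, aged 2 to 4 months. The *Villin* promoter restricts the tamoxifen-inducible Cre to the intestinal epithelium. Organoids given ethanol (EtOH) served as controls for *Mettl3*, which encodes the catalytic subunit of the m6A methyltransferase, and 0.5 µM 4-hydroxytamoxifen (4-OHT) over 2 days was meant to delete it. Both kinds were cultured over 5 days with the solvent DMSO or with necrostatin-1 (Nec-1), a RIPK1 inhibitor. Nec-1 was given at 10 µM according to the methods and at 5 µM according to a figure legend. There are 4 groups, of which 4-OHT Nec-1 has 1 library and the other groups have 2 each. The methods speak of biological replicates for the experiments in general, but neither they nor the labels say whether these libraries are separate cultures or animals. A p-value here thus measures only the spread between libraries, which may be technical.

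AhR is a ligand-activated transcription factor of the bHLH-PAS family. Without ligand it waits in the cytoplasm with HSP90, and with ligand it enters the nucleus, pairs with ARNT and binds xenobiotic response elements with the core GCGTG. *Cyp1a1* is its classical target in gut epithelium, where dietary and microbial indoles are natural ligands and CYP1A1 in turn degrades them. AHRR and TIPARP are themselves induced by AhR and restrain it. *Nqo1* is shared with NRF2, the regulator of antioxidant genes. Nec-1 is itself an indole derivative.

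The promoters of *Cyp1a1*, *Ahrr*, *Cyp1b1* and *Nqo1* are shown first, so that the motif content can be read beside the expression values. Those of *Arnt*, *Cyp1a2* and *Tiparp* are counted below but not printed. RefSeq promoter windows (GRCm38.p6) matched 7 of the 9 members, all but *Ahr* and *Aldh3a1*, and the 250 bases before the transcription start are printed 5′ to 3′ on the strand of the gene. Capitals mark GCGTG or, on the opposite strand, CACGC. *Cyp1a1* lies at chr9:57697363-57697612 on the plus strand, *Ahrr* at chr13:74292332-74292581, *Cyp1b1* at chr17:79715062-79715311 and *Nqo1* at chr8:107403206-107403455, the last 3 on the minus strand.
Cyp1a1: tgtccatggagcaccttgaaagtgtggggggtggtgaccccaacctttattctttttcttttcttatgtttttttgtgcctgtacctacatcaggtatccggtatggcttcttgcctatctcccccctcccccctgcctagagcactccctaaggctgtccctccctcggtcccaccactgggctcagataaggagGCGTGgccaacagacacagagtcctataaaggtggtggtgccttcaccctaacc
Ahrr: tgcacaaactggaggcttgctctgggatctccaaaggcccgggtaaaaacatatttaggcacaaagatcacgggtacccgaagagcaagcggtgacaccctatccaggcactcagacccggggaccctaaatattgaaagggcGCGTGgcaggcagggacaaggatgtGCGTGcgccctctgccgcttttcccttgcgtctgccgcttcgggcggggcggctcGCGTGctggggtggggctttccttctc
Cyp1b1: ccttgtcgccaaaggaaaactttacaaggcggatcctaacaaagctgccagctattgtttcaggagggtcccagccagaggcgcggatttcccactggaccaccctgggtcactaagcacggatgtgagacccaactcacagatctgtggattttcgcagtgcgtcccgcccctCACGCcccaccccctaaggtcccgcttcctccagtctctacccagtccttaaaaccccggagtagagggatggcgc
Nqo1: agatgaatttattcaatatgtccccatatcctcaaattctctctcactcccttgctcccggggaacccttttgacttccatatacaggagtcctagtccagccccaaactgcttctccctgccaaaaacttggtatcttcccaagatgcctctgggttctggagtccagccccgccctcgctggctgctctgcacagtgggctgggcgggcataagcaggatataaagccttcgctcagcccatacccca

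The core GCGTG was present in 5 of the 7 windows, and in 28.2% of all 32851 promoter windows of this length. *Cyp1a1* held 1 copy, which begins 54 bases before the start. *Ahrr* held 3 copies, beginning 107, 82 and 27 bases before the start, and the last of these is also the only copy of the longer form TNGCGTG among the members (4.1% of all windows). *Cyp1b1* and *Tiparp* held 1 copy each on the opposite strand, beginning 76 and 170 bases before the start, and *Arnt* held 1. *Cyp1a2* and *Nqo1* held none. The antioxidant response element TGACNNNGC, read on both strands, was found 2 times in the *Arnt* window and in no other member (10.2% of all windows). These letters say nothing of regions further upstream, where the known enhancer of *Cyp1a1* lies. *Cyp1a1* and *Cyp1a2* are neighbours on chromosome 9 that point away from each other, with 13958 bases between the starts used here.

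The deposited values are FPKM, scaled for gene length and library size, so levels may be compared between genes. In EtOH DMSO organoids *Nqo1* was the highest member and *Tiparp* the second, and the libraries of *Arnt* and *Ahr*, next in order, overlapped. *Cyp1a1*, *Ahrr*, *Cyp1a2*, *Cyp1b1* and *Aldh3a1* all lay at 0.0610 FPKM or less there, with overlapping neighbours. With Nec-1, *Cyp1a1* moved to second place in both EtOH and 4-OHT organoids, and *Nqo1* stayed first. Differences were tested with limma on log2(FPKM + 1) for genes that reached 1 FPKM in 2 or more libraries, a filter that 12702 genes passed. Of the members 5 passed, namely *Ahr*, *Arnt*, *Tiparp*, *Nqo1* and *Cyp1a1*. *Cyp1a1* passed only through its 3 Nec-1 libraries. *Ahrr* and *Cyp1b1* reached 1 FPKM in the 4-OHT Nec-1 library alone, and *Cyp1a2* and *Aldh3a1* in none.

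**Figure D1:**
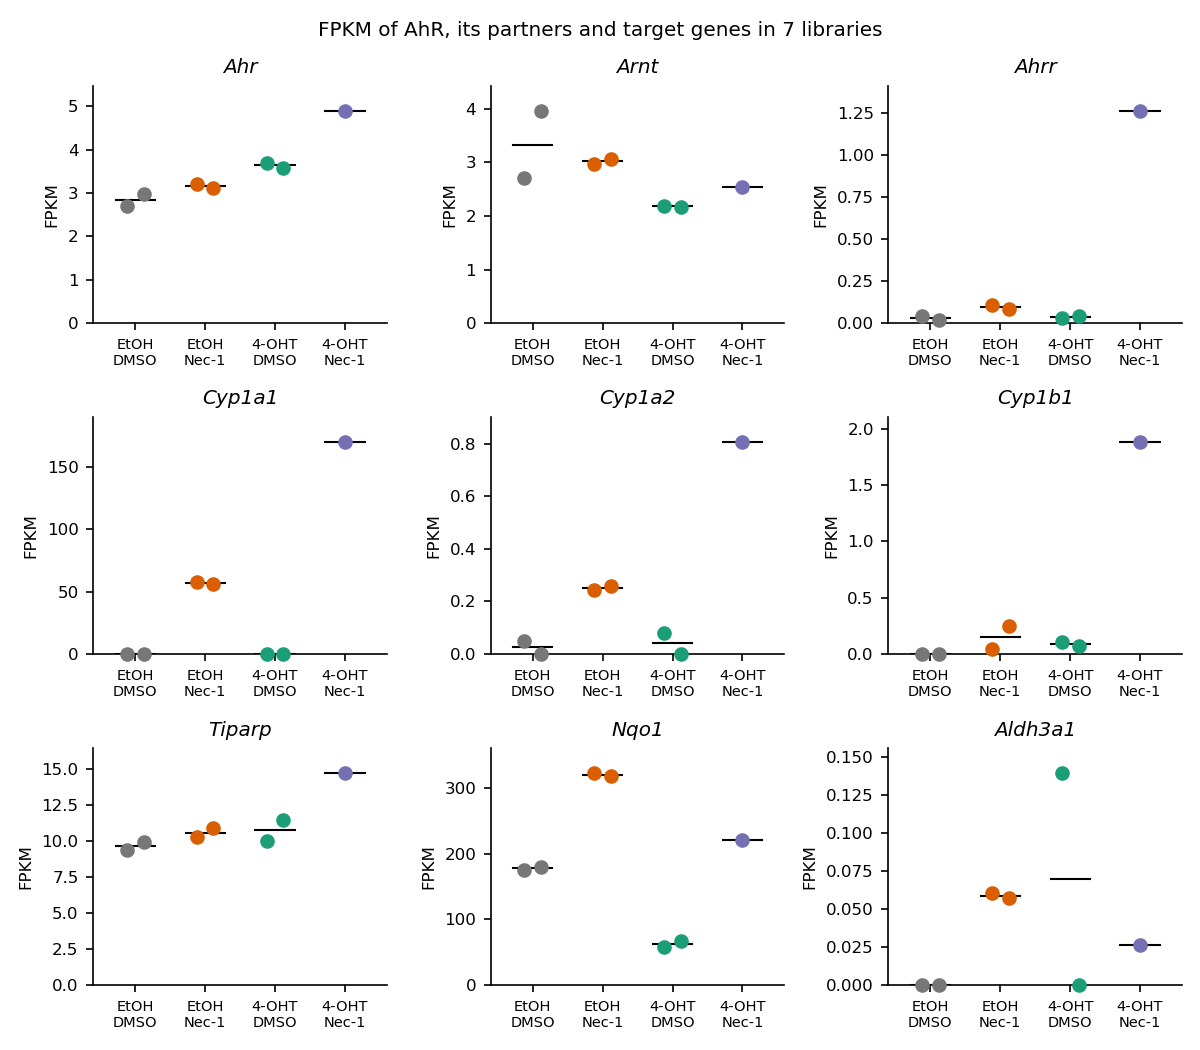
FPKM (y axis, from 0, one scale per gene) of the 9 members in the 4 groups (x axis). Points are libraries and bars are group means, with 2 libraries per group except 4-OHT Nec-1 with 1. *Cyp1a1* stood at 56.0 FPKM or more in the 3 Nec-1 libraries and at 0.322 or less in the 4 DMSO libraries, and *Nqo1* was lowest in 4-OHT DMSO.

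*Mettl3* itself, the targeted gene, was at 2.41 to 2.71 FPKM in the EtOH libraries and at 3.36 to 4.14 in the libraries labelled 4-OHT. It was called higher in 4-OHT DMSO than in EtOH DMSO (log2 difference 0.41, limma adjusted p = 0.0231), though not after median centring of the libraries (0.25, limma adjusted p = 0.0796). A value for the whole gene, which also overlaps *Tox4*, cannot show the excision of some exons, and every direction between EtOH and 4-OHT below rests on the labels. FPKM summed to 450207 to 498712 per library, and fragment counts and therefore depth are unknown. All 6 epithelial markers were at 56.5 FPKM or more in every library. The 4 fibroblast markers summed to at most 0.129 FPKM and the 3 endothelial markers to at most 0.144. *Ptprc*, which marks all leukocytes, stayed at 0.0497 FPKM or less.

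The first question was what Nec-1 does to the AhR battery in EtOH organoids. *Cyp1a1*, a monooxygenase that oxidises aromatic ligands of AhR, rose from near 0 to among the well-expressed genes. The EtOH DMSO libraries held 0.0180 and 0.0610 FPKM and the EtOH Nec-1 libraries 57.4 and 56.0. The groups were far apart while the Nec-1 replicates nearly coincided. The difference was 5.80 on the log2(FPKM + 1) scale (standard error 0.11, 95% interval 5.51 to 6.08, limma adjusted p = 9.25e-05 with Benjamini-Hochberg adjustment over all genes tested). Of the 12702 genes 0.22% were called in either direction. *Cyp1a1* entered this test only through its Nec-1 libraries, so members are counted with every gene above 0 in any library kept. It was then the 1 of 9 members called (limma adjusted p = 0.00326), as were 0.0284% of the 28195 genes. The DMSO level is too close to 0 for the ratio of FPKM to be read, and the size of the log2 difference depends on the pseudocount (8.69 with 0.1 FPKM in place of 1), though *Cyp1a1* was called with each pseudocount tried. In bulk RNA, a change in the number of cells of a type and a change in RNA per cell cannot be told apart.

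*Nqo1*, a quinone reductase, was at 176 and 180 FPKM without and at 322 and 318 with Nec-1 in EtOH organoids. The Nec-1 libraries were higher without overlap, with a ratio of the means of 1.80. The log2 difference of 0.84 (standard error 0.095, interval 0.61 to 1.08) missed the threshold over all genes (limma adjusted p = 0.0603). It passed under 4 of 16 alternative settings, which were upper quartile scaling, the 4 libraries compared alone, and leaving out either 4-OHT DMSO library, and the limma adjusted p over the 16 ran from 0.0196 to 0.443. The 4-OHT DMSO libraries are not part of this comparison but share in the estimate of spread, and without any one of the 4 EtOH libraries the limma adjusted p was 0.255 or more.

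The receptor, its partner and *Tiparp* differed far less. *Ahr* was at 2.70 and 2.97 FPKM in EtOH DMSO and at 3.21 and 3.11 with Nec-1, a log2 difference of 0.12 with an interval from -0.12 to 0.36 (limma adjusted p = 0.631). *Arnt* was at 2.71 and 3.95 FPKM without and at 2.98 and 3.06 with Nec-1, so that the Nec-1 libraries fell between the DMSO libraries (log2 difference -0.092, interval -0.49 to 0.30, limma adjusted p = 0.838). *Tiparp*, a mono-ADP-ribosyltransferase that modifies AhR, was at 9.37 and 9.97 FPKM without and at 10.3 and 10.9 with Nec-1. Its groups did not overlap, and its gene model overlaps 4931440P22Rik, from which its reads may not be separable. The log2 difference of 0.12 had an interval from -0.13 to 0.37 (limma adjusted p = 0.638).

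The members below the filter were also higher with Nec-1, at levels near the bottom of the scale. *Cyp1a2*, the neighbour of *Cyp1a1* best known from liver, was at 0.0499 and 0 FPKM without and at 0.245 and 0.259 with Nec-1. *Ahrr* was at 0.0397 and 0.0206 without and at 0.106 and 0.0812 with Nec-1. *Cyp1b1*, which metabolises oestrogens and polycyclic hydrocarbons, was listed at 0 in both EtOH DMSO libraries and at 0.0431 and 0.2504 with Nec-1. *Aldh3a1*, an aldehyde dehydrogenase abundant in cornea, was likewise listed at 0 in EtOH DMSO and at 0.0607 and 0.0571 with Nec-1. When every gene above 0 in any library was tested, 0 of these 4 passed in EtOH organoids (limma adjusted p between 0.281 and 0.748). An unadjusted limma p under 0.05 was found for 2 of the 4 and for 9.81% of all genes. Of the 9 members, 8 had both EtOH Nec-1 libraries above both EtOH DMSO libraries, all but *Arnt*, as did 9.83% of the 28195 genes above 0 in at least 1 library.

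The same comparison in organoids labelled 4-OHT rests on 1 Nec-1 library and was not tested. *Cyp1a1* was at 0.322 and 0.103 FPKM without and at 170 with Nec-1, which put it 7.01 and 7.27 above the DMSO libraries on the log2(FPKM + 1) scale. *Nqo1* was at 58.3 and 67.6 FPKM without and at 220 with Nec-1, or 1.69 and 1.90 above on that scale. Both exceeded each DMSO library by 1 log2 unit or more, as did 0.756% of all genes tested. With low genes kept, 4 of 9 members did, *Ahrr* and *Cyp1b1* among them, and 0.383% of the 28195 genes. In all, 96 genes lay that far above and 146 below, or 126 and 116 after median centring of the libraries.

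*Ahr*, at 3.70 and 3.57 FPKM without and 4.88 with Nec-1, and *Tiparp*, at 11.5 or less compared with 14.7, were also above both DMSO libraries. *Arnt* was at 2.20 and 2.17 FPKM without and 2.54 with Nec-1. The 3 genes differed by 0.15 to 0.52 on the log2(FPKM + 1) scale, depending on the gene and the DMSO library.

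Among the low members, *Ahrr* went from 0.0282 and 0.0428 FPKM to 1.26 and *Cyp1b1* from 0.103 and 0.0693 to 1.88. Both genes thus reached 1 FPKM in the one library that combined 4-OHT and Nec-1. *Cyp1a2* went from 0.0802 and 0 to 0.806 FPKM. *Aldh3a1* did not share this order, with 0.139 and 0 FPKM without and 0.0264 with Nec-1. The 4-OHT Nec-1 library was above both DMSO libraries for 8 of the 9 members, as for 26.4% of the 28195 genes.

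Over both kinds of organoid, all 3 Nec-1 libraries lay above all 4 DMSO libraries for *Cyp1a1*, *Nqo1*, *Cyp1a2* and *Ahrr*, 4 of 9 members, compared with 1.73% of the 28195 genes. With EtOH or 4-OHT as a covariate, Nec-1 against DMSO gave *Cyp1a1* a log2 difference of 6.33 (standard error 0.27, limma adjusted p = 0.000472). By the same limma test *Nqo1* differed by 1.22 (interval 0.75 to 1.70, adjusted p = 0.0581), *Tiparp* by 0.24 (adjusted p = 0.235), *Ahr* by 0.21 (adjusted p = 0.240) and *Arnt* by 0.005 (adjusted p = 0.987). In this fit 0.732% of all genes tested were called. With low genes kept, *Cyp1a1* was the 1 of 9 members called (limma adjusted p = 0.00466), as were 0.0851% of the 28195 genes. *Nqo1* passed under 2 of 15 alternative settings, upper quartile scaling (1.34, limma adjusted p = 0.0442) and the genes at 1 FPKM in every library (limma adjusted p = 0.0454), and the highest limma adjusted p was 0.177.

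**Figure D2:**
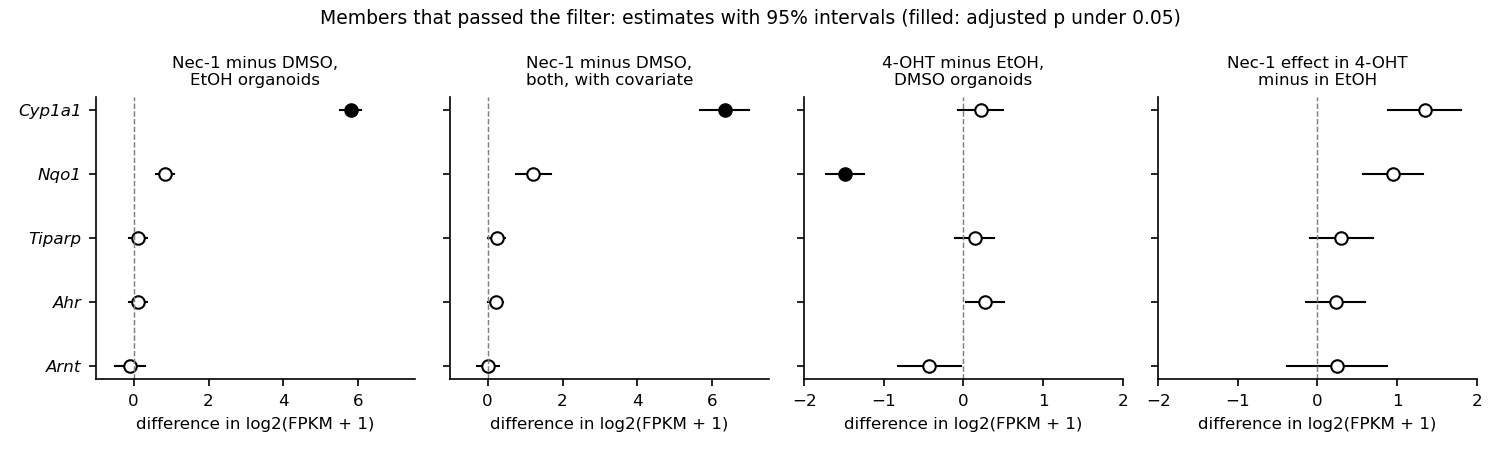
Differences in log2(FPKM + 1) (x axis) with 95% intervals from limma for the 5 members that passed the filter on low values, in 4 comparisons. Filled points have an adjusted p under 0.05, namely *Cyp1a1* with Nec-1 in both fits (5.80 and 6.33) and *Nqo1* between 4-OHT and EtOH (-1.49).

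The libraries labelled 4-OHT DMSO were next set against EtOH DMSO to see how the battery stood without the inhibitor. *Nqo1* fell from 176 and 180 FPKM to 58.3 and 67.6, and EtOH DMSO was 2.83 times as high on average. Its log2 difference was -1.49 (standard error 0.095, interval -1.73 to -1.25, limma adjusted p = 0.000544). *Nqo1* was the 1 member of 5 called, and since 41.2% of all genes tested were called in this comparison, the count says little of the members. It passed under each of 16 alternative settings, with differences from -1.65 to -1.38.

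*Ahr*, *Cyp1a1*, *Cyp1b1* and *Tiparp*, 4 of 9 members, were higher without overlap in 4-OHT DMSO, and *Arnt* and *Nqo1* lower without overlap. Such a gap upward was found for 26.6% of the 28195 genes and downward for 22.2%. *Ahr* (log2 difference 0.27, limma adjusted p = 0.0686) and *Arnt* (-0.43, limma adjusted p = 0.0783) did not pass the threshold. *Arnt* passed once each library was centred on its median (-0.59, limma adjusted p = 0.0215), with upper quartile scaling (-0.54, limma adjusted p = 0.0381), or without the first EtOH DMSO library (-0.64, limma adjusted p = 0.0230). *Arnt* overlapped with *Ahr* in EtOH DMSO and was below it in both 4-OHT DMSO libraries. *Arnt* was also the only member with all 4 EtOH libraries above all 3 libraries labelled 4-OHT, which 11.7% of the 28195 genes shared. *Cyp1a1* differed by 0.22 (interval -0.071 to 0.50, limma adjusted p = 0.185), with all 4 libraries at 0.322 FPKM or less. *Tiparp* differed by 0.14 (limma adjusted p = 0.311), a sign that turned under median centring and upper quartile scaling (-0.020 and -0.014).

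With Nec-1 present, the library labelled 4-OHT was compared with the 2 EtOH libraries, again without a test. *Cyp1a1* was at 170 FPKM there, 2.99 times the mean of the EtOH Nec-1 libraries, or 1.55 and 1.58 higher on the log2(FPKM + 1) scale. It was the 1 tested member at least 1 log2 unit above each EtOH Nec-1 library, as were 4.09% of all genes tested. *Cyp1b1* (1.88 FPKM against 0.0431 and 0.2504) and *Ahrr* (1.26 against 0.106 and 0.0812) were past the same limit when low genes were kept, when 1.9% of genes were. *Cyp1a2* was 3.20 times the EtOH Nec-1 mean and 0.52 and 0.54 higher on the log2 scale. *Nqo1* went the other way, at 220 FPKM against 322 and 318. *Cyp1a1* and *Cyp1a2* stood in a similar proportion in the 3 Nec-1 libraries, with 234 and 216 times as much *Cyp1a1* in EtOH Nec-1 and 211 times as much in 4-OHT Nec-1.

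Whether the Nec-1 effect differed between organoids labelled 4-OHT and EtOH was tested as an interaction, in which the lone 4-OHT Nec-1 library was assumed to vary like the others. *Cyp1a1* had a difference of effects of 1.35 (standard error 0.18, interval 0.89 to 1.80) and *Nqo1* of 0.95 (standard error 0.15, interval 0.57 to 1.33). Adjusted over all genes neither passed (limma adjusted p = 0.103 and 0.147), and for *Ahr*, *Arnt* and *Tiparp* the limma adjusted p lay between 0.699 and 0.834. The count of members called was 0 of 5, and 0.0551% of all genes were called. An unadjusted limma p under 0.05 was found for 2 of the 5 and for 8.34% of all genes. Without the first 4-OHT DMSO library both passed (*Cyp1a1* 1.48, *Nqo1* 0.85, limma adjusted p = 0.0169 and 0.0372). For *Cyp1a1* the value depends on how the near-zero DMSO levels are read, and with a pseudocount of 0.1 it was 0.49. When every gene above 0 was kept, *Ahrr* had a difference of effects of 1.04 (interval 0.92 to 1.16, limma adjusted p = 0.00911), which rests on 1 library at 1.26 FPKM, and 0.777% of genes were called.

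Beyond the members, 3 lists of related genes were counted. They were the AhR chaperones and other bHLH-PAS factors (11 genes, 9 tested), further genes reported to respond to AhR (11 genes, 10 tested) and the NRF2 pathway (16 genes, all tested). Each median is given beside the median of all genes tested, which was -0.094 with Nec-1 in EtOH organoids.

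In the chaperone and partner list 0 of 9 genes were called by limma with Nec-1 in EtOH organoids, with 2 at an unadjusted p under 0.05 as against 13.3% of all genes, and the median log2 difference was -0.15. The largest differences were those of *Bmal1* (-0.29) and *Npas2* (-0.28), both partners in the circadian clock (limma adjusted p = 0.337 and 0.335). *Bmal1* was at 3.23 and 3.26 FPKM without and at 2.35 and 2.58 with Nec-1. In 4-OHT DMSO organoids 4 of the 9 were called against EtOH DMSO, 2 higher and 2 lower, a share near the 41.2% of all genes.

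Of the 10 further AhR-responsive genes tested 1 was called with Nec-1 in EtOH organoids, as were 0.22% of all genes. It was *Gsta1*, a glutathione S-transferase. In EtOH organoids it was at 696 and 622 FPKM without and 1679 and 1735 with Nec-1, and in 4-OHT organoids at 732 and 660 without and 2524 with it. Its log2 difference with Nec-1 was 1.37 in EtOH organoids (standard error 0.11, limma adjusted p = 0.0168) and 1.57 with the covariate (limma adjusted p = 0.00723), and 4-OHT alone made a difference of 0.080 (limma adjusted p = 0.584). *Gsta1* has near-identical paralogs, and how reads were split among them is not known. The list had a median of 0.27 over 10 genes in EtOH organoids, with 7 above 0, as for 29.5% of all genes. An unadjusted limma p under 0.05 was found for 3 of the 10 and for 13.3% of all genes, and 1 of the 3 was lower with Nec-1 (-0.54). *Ugt1a6b* had the largest difference of the list, 2.61, but its replicates ranged from 0.778 to 34.6 FPKM within EtOH Nec-1. Its gene model overlaps those of the other *Ugt1a* genes, so its share of their reads is uncertain, and it was singled out after its values were seen.

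Of the 16 NRF2 genes 0 were called by limma with Nec-1 in EtOH organoids and 10 had an unadjusted p under 0.05, which 13.3% of all genes had. Differences were above 0 for 14 of them, as for 29.5% of all genes, and the median was 0.39. With the covariate 4 were called, all higher, as against 0.732% of all genes called in either direction, and the median was 0.52 against -0.092 for all genes. *Gstm1*, another glutathione S-transferase, was at 1187 and 1204 FPKM without and 2679 and 2745 with Nec-1 in EtOH organoids, and at 479 and 620 without and 2162 with it in 4-OHT organoids (log2 difference with the covariate 1.50, limma adjusted p = 0.0322). *Slc7a11*, the cystine transporter, rose by 1.08 (limma adjusted p = 0.00737), from at most 4.81 FPKM in the 4 DMSO libraries to at least 6.88 in the 3 Nec-1 libraries. *Srxn1*, which reduces oxidised peroxiredoxins, rose by 0.66 and *Me1*, the cytosolic malic enzyme, by 0.57 (limma adjusted p = 0.0344 and 0.0341). The lists were assembled with results of these data known, and their counts describe them without a test of the list.

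**Figure D3:**
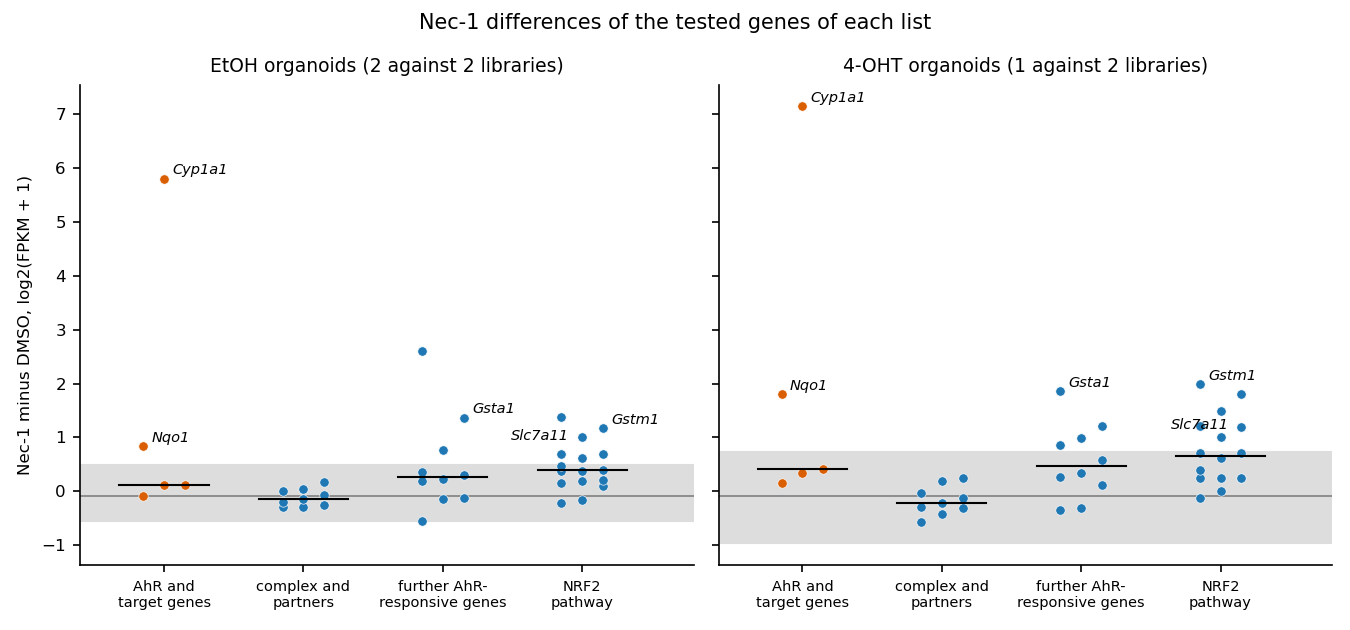
Nec-1 minus DMSO in log2(FPKM + 1) (y axis) for the tested members and the tested genes of 3 lists (x axis), in EtOH organoids (left) and 4-OHT organoids (right). Points are genes and black bars list medians, and the grey line and band are the median and the central 95% of all 12702 genes. *Cyp1a1* lay at 5.80 and 7.14, and the NRF2 list had medians of 0.39 and 0.67 against -0.094 and -0.081 for all genes.

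The genes most like *Cyp1a1* over the 7 libraries, by Pearson's r of log2(FPKM + 1) among the 12702 genes, were *Cyp3a11* (0.9964), *Pet117* (0.9958), *Gsta1* (0.9949), *Gsta4* (0.9861) and *Abcb1a* (0.9814). The 7 points share 4 groups, and the measure is a description. *Cyp3a11*, a drug-metabolising monooxygenase with close paralogs among which reads can be split, was at 1.99 to 2.55 FPKM in the 4 DMSO libraries and at 25.9, 24.7 and 34.8 with Nec-1. *Abcb1a*, the P-glycoprotein efflux pump, was at 24.2 to 33.1 FPKM in DMSO and at 66.1, 60.3 and 92.0 with Nec-1. *Gsta4*, a transferase that acts on lipid aldehydes, was at 375 to 428 FPKM in DMSO and at 760, 784 and 840 with Nec-1. *Pet117*, an assembly factor of cytochrome c oxidase, went from 0.00458 FPKM or less to 10.8, 11.1 and 15.1, but it overlaps *Kat14* and its share of their reads is uncertain. Among the members *Cyp1a2* followed *Cyp1a1* most closely (r = 0.886), then *Nqo1* (0.709) and *Cyp1b1* (0.683), and *Arnt* least (0.082).

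Markers of epithelial cell types moved with both treatments, and their part in these results was not tested. The 8 enterocyte markers, of which 2 were called lower with Nec-1 in EtOH organoids, summed to 1498 and 1425 FPKM without and 1136 and 1132 with Nec-1 in EtOH organoids, and to 1091 and 1144 without and 1245 with it in 4-OHT organoids. *Fabp1* carried the last value, and the other 7 summed to 763 and 750.1 without and 598 with Nec-1 in 4-OHT organoids. These 7 did not move alike. There *Alpi* was at 22.3 and 30.3 FPKM without and 54.2 with Nec-1, and *Apoa4* at 104 and 90.7 without and 38.0 with it. Of all 8, 4 had a difference above 0 there, as did 4688 of the 12702 genes tested. The 2 called lower in EtOH organoids were *Apoa4* and *Apoc3*, where 0.22% of all genes tested were called. The 4 stem cell markers summed to 36.8 to 40.4 FPKM in EtOH DMSO and to 7.63 in 4-OHT Nec-1, and 3 of the 4 were called lower in 4-OHT DMSO than in EtOH DMSO. The 5 Paneth, 4 goblet and 3 enteroendocrine cell markers were all called higher in 4-OHT DMSO than in EtOH DMSO, as were 5 of the 6 epithelial markers. Of the 8 enterocyte markers 5 were called lower and 1 higher. In this comparison 41.2% of all genes tested were called. The 3 hepatocyte markers *Alb*, *Ttr* and *Serpina1c* summed to between 12.8 and 22.3 FPKM, lower in the Nec-1 libraries than in the EtOH DMSO libraries.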

How the data were processed

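Total RNA of the organoids was sequenced on the Illumina HiSeq X platform from NEBNext Ultra libraries. The submitters' processing notes name HISAT2 2.1.0, StringTie 1.3.3b and the build mm10, with no role given. The authors deposited FPKM, 1 value per Ensembl gene and library. One table repeated the values of others in 2 columns, which were not counted again, and 0 columns were left unmapped. The CUT&Tag samples (2) were not analysed here. Symbols matched 54723 of the 54838 identifiers, and promoters came from RefSeq windows (GRCm38.p6).

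FPKM were tested as log2(FPKM + 1) with limma 3.58.1 (lmFit, eBayes with trend) in R 4.3.3 over genes that reached 1 FPKM in 2 or more libraries, with all 7 libraries and 1 mean per group (3 residual degrees of freedom), or with Nec-1 and 4-OHT as additive terms (4). P-values were adjusted over all genes tested (Benjamini-Hochberg, threshold 0.05). Comparisons with the single 4-OHT Nec-1 library were read against each library of the other group at 1 log2 unit. The fit was tested on simulated data. Fragment counts are unknown, so no counting interval is given. The most common ratio of low FPKM put the other libraries at a relative depth of 0.853 to 1.03, with EtOH DMSO library 1 set to 1, and was shared by 6.36% to 7.72% of low genes.

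Genes named are the members, *Mettl3*, the genes of each list called with Nec-1 (otherwise the 2 with the largest difference) and the 5 most like *Cyp1a1*. The members and lists were chosen with earlier results of these data known. Alternatives were pseudocounts of 0.1 and 0.25, no filter, 1 FPKM in every library, median centring, upper quartile scaling, no trend, only the libraries compared, the replicate number as a block, and each library left out.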

Additional observations from a re-analysis of the deposited data

How the results depend on the processing

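*Cyp1a1* kept its call with Nec-1 under each of 15 alternatives in EtOH organoids and 14 with the covariate, and *Nqo1* its call between 4-OHT and EtOH under 16. Of the alternatives for *Cyp1a1*, only the one with no filter admitted it regardless of its Nec-1 libraries. The others kept a filter that *Cyp1a1* passed only through its Nec-1 libraries, so they are no separate support for its call. Requiring 1 FPKM in every library removed *Cyp1a1* from the fit, so that 0 members were called with Nec-1 in EtOH organoids, and left 1 past the fold in 4-OHT organoids and 0 between 4-OHT and EtOH with Nec-1. Keeping all genes put 4 and 3 members past the fold in these comparisons and called 1 in the interaction. With all genes kept, 0.383% of them were past the fold upward in 4-OHT organoids and 1.9% between 4-OHT and EtOH with Nec-1. Upper quartile scaling called 2 of 5 members with Nec-1 in EtOH organoids (37 of 12702 genes higher, 6 lower) and with the covariate (95 higher, 12 lower). Between 4-OHT and EtOH it also called 2 members (2232 genes higher, 2976 lower), as median centring did (2213 and 3187). So many genes were called there that the count says little of the members. Only the libraries compared called 2 members with Nec-1 in EtOH organoids, among 79 genes. Leaving out 1 library of a pair leaves a group with 1 library, so members called are not counted for these fits. Without any 1 of the 4 EtOH libraries, *Cyp1a1* differed by 5.77 to 5.83 with Nec-1 in EtOH organoids. The sign of *Arnt*, never called with Nec-1, turned in EtOH organoids with median centring (0.007) and without the second EtOH DMSO library (0.12), in a range of -0.30 to 0.12 with 1 library left out. With the covariate it turned without the first EtOH DMSO library (-0.075), either 4-OHT DMSO library (-0.009 and -0.013) or the 4-OHT Nec-1 library (-0.092), in a range of -0.092 to 0.13. *Tiparp* turned between 4-OHT and EtOH with median centring (-0.020) and upper quartile scaling (-0.014).

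Counts of all genes called moved more. From 28 with Nec-1 in EtOH organoids they went to 8 with no filter, 43 with upper quartile scaling, 79 with only the libraries compared and 9 to 75 with 1 library left out. From 93 with the covariate they went to 24 with no filter and 14 to 105 with 1 library left out, and from 7 in the interaction to 219 with no filter, 3 with 1 FPKM in every library and 1 to 337 with 1 library left out. In the untested comparison in 4-OHT organoids 242 genes became 460 and 400 with pseudocounts of 0.1 and 0.25, 136 with 1 FPKM in every library and 437 to 755 with 1 library left out. With Nec-1 present, 750 became 1413 and 1246 with these pseudocounts. Median centring moved the median of all genes from 0.077 to -0.080 between 4-OHT and EtOH, where 3117 higher and 2120 lower genes became 2213 and 3187. The cause of these shifts was not tested.

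Whether the replicate numbers pair the samples is not stated. Deviations of same-numbered libraries correlated at -0.040, 0.0065 and -0.012, so no shared deviation was seen. With 2 libraries per group this cannot show that same-numbered libraries came from separate cultures or animals, and the single 4-OHT Nec-1 library could not be checked. The replicate block called 43 genes with the covariate, 4 in the interaction, 19 with Nec-1 in EtOH organoids and 4697 between 4-OHT and EtOH, and no call of a member changed. FPKM carry no fragment counts, so values below 0.1 FPKM, such as those of *Cyp1b1* and *Aldh3a1*, may rest on very few fragments.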

Other observations

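*Gclc*, the catalytic subunit of glutamate-cysteine ligase, and *Ephx1*, the microsomal epoxide hydrolase, were singled out after their values were seen, because, as for *Nqo1*, their levels were higher with Nec-1 in both kinds of organoid and lowest in 4-OHT DMSO. This order was not particular to them, and *Gstm1* and *Me1* were among other genes that had it. *Gclc* was at 103.5 and 115.7 FPKM without and 174.6 and 181.1 with Nec-1 in EtOH organoids, and at 48.1 and 58.9 without and 151.7 with it in 4-OHT organoids. For *Ephx1* these values were 188.3 and 188.1, 305.6 and 303.3, 38.6 and 49.6, and 103.6 FPKM in the same order. Both fell between 4-OHT DMSO and EtOH DMSO (log2 differences -1.03 and -2.08, limma adjusted p = 0.00268 and 0.000497). With Nec-1 in EtOH organoids they differed by 0.69 each and did not pass (limma adjusted p = 0.144 and 0.157). With the covariate the log2 differences were 1.01 and 0.90 (limma adjusted p = 0.0690 and 0.0528). These comparisons share the DMSO libraries.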
